A study of Mus musculus with 19 samples.

Results

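The MHC class II genes of the mouse were followed here through a set of ErbB2-driven mammary tumours that kept or lost the integrin genes Itgb1 and Itgb3. The 9 genes named were H2-Aa, H2-Ab1, H2-Eb1, H2-DMa, H2-DMb1, H2-Oa, H2-Ob, Cd74 and Ciita, and each was represented by the probe set that carried its symbol alone, the one with the highest mean where a gene had several. Of the 9 names, 8 had such a probe set, and all 8 passed the intensity filter that left 14231 genes of the array for testing. The filter kept a gene whose level reached the median of the whole table, 4.38 on the log2 scale, on at least 4 arrays. For Cd74 the array held 1 probe set, annotated to Cd74 and to the microRNA gene Mir5107 together, so its values are given as those of a shared probe set and were not tested.

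Total RNA from 19 frozen end-burden mammary tumours was hybridised to whole-transcript arrays, 1 array per tumour. All tumours came from MMTV-NIC mice, in which the mouse mammary tumour virus promoter drives an activated ErbB2 (Neu) and Cre recombinase from a single transcript, so floxed genes are deleted where that transcript is made, in mammary epithelium. The 6 tumours labelled double knockout carried itgb1 fl/fl and itgb3 fl/fl alleles, the 4 Itgb1 knockouts itgb1 fl/fl alleles, the 4 Itgb3 knockouts itgb3 fl/fl alleles, and the 5 controls (labelled NIC WT) no floxed integrin gene. Tumours are numbered within their group in accession order, and age and strain were not used here. The labels do not say whether each tumour came from a separate animal, so a p-value here speaks only for the scatter among the tumours sampled, which may be technical. Each sample was bulk tumour, so its RNA also held that of stroma, blood vessels and leukocytes.

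MHC class II molecules are pairs of an alpha and a beta chain that show peptides from engulfed proteins to CD4 T cells. H2-Aa and H2-Ab1 encode the chains of the mouse A molecule and H2-Eb1 the beta chain of the E molecule. Cd74, the invariant chain, fills the groove while the pair is carried to the endosome, the H2-DM pair then exchanges its remnant for peptide, and the H2-O pair restrains H2-DM. Ciita is the coactivator that switches these genes on, constitutively in dendritic cells, B cells and many macrophages and after interferon gamma in many other cell types. Epithelial and carcinoma cells usually make little class II unless so induced, and the class II of a mammary tumour is commonly carried by infiltrating leukocytes.

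Ciita does not bind DNA itself but joins the factors RFX, CREB and NF-Y on the X, X2 and Y boxes before each gene. The stretch that holds these boxes is shown because it is the common feature through which Ciita acts on these genes. RefSeq promoter entries (GRCm38.p6, from 250 bases before to 50 bases after a start site) existed for 6 of the 9 genes. A GNAAC core of the X box followed by the Y box core ATTGG, which reads CCAAT on the opposite strand, was looked for on both strands, with 15 to 40 bases between the cores, a spacing chosen after the sequences had been seen. The pair was found on the sense strand before 5 genes, H2-Aa, H2-Eb1, H2-DMb1, H2-Oa and H2-Ob, with 25 to 28 bases between the cores. Capitals mark the X core and then the Y core, with 15 bases on either side.
H2-Aa, chr17:34287852-34287919, minus strand: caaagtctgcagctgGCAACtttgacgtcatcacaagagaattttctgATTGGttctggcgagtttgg
H2-Eb1, chr17:34305761-34305827, plus strand: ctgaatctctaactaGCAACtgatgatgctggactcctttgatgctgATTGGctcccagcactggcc
H2-DMb1, chr17:34153082-34153149, plus strand: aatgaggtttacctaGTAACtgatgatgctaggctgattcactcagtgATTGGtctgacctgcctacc
H2-Oa, chr17:34092288-34092355, plus strand: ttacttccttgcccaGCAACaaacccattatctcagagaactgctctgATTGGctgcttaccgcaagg
H2-Ob, chr17:34238803-34238867, plus strand: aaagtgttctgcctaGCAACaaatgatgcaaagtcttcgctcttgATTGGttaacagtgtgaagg

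The same pair stood on the sense strand in 679 of all 32851 promoter entries (2.07%), and on either strand in 1390 (4.23%). The Y core alone stood on either strand in 37.4% of them. Neither of the 2 entries of H2-DMa held the pair, which says only that these letters are not in those windows. H2-Ab1, Ciita and Cd74 had no entry. Of the 8 genes measured, 7 lie on chromosome 17 and Ciita on chromosome 16.

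Before the members are read, the labels were checked against the deleted genes. The level of Itgb1 was 8.32 ± 0.48 for labelled double knockouts, 8.70 ± 0.29 for Itgb1 knockouts, 10.04 ± 0.20 for Itgb3 knockouts and 10.16 ± 0.19 for controls (log2 intensity, SD, n = 6, 4, 4 and 5). Itgb3 was 8.13 ± 0.39 in the labelled double knockouts and 7.01 ± 0.48 in the Itgb3 knockouts, against 8.12 ± 0.25 in controls. The labelled double knockouts thus had low Itgb1 but Itgb3 at the control level, and they are called labelled double knockouts throughout. Where the probes lie relative to the floxed exons was not analysed here. No scan date or batch was given, array medians ran from 4.32 to 4.48, and arrays had median correlations with the others of 0.969 to 0.980.

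1 tumour stood apart in the class II genes. Labelled double knockout tumour 6 had the lowest level of all 19 tumours for H2-Aa, H2-Ab1, H2-DMb1 and the Cd74 and Mir5107 probe set, while the other 5 of its group were among the highest for H2-Aa, H2-Ab1 and that probe set. Its array had the lowest weight of its group when limma estimated array quality (0.589, against 0.816 to 2.02), and its median correlation with the other arrays was 0.973. Its Itgb1 level of 8.25 lay within the range of its group. Its Itgb3 level of 7.69 was the lowest of its group, beside 7.70 in labelled double knockout tumour 3 and 7.72 to 8.41 in controls. The member tests and the list calls are therefore given with and without it. Because its class II levels singled it out, a class II p-value without it comes after removing the tumour that went against the others of its group, and is given as a description of the other 18.

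H2-Ab1, the A beta chain, was the member with the widest range, and in 5 of the 6 labelled double knockouts it was higher than in every single knockout. Its level was 10.78, 10.87, 10.55, 10.52, 10.79 and 8.5 in the labelled double knockouts. It was 9.77, 10.04, 9.55 and 9.60 in the Itgb1 knockouts and 9.12, 9.03, 9.91 and 9.31 in the Itgb3 knockouts, against 9.09, 10.59, 9.94, 10.28 and 9.29 in controls. The first 5 labelled double knockouts lay between 10.52 and 10.87, 3 of them above every control, and tumour 6 lay below all other tumours, so the groups overlapped. The mean difference of the labelled double knockouts from controls was 0.50 (SE 0.36, 95% interval -0.25 to 1.25, limma adjusted p = 0.505).

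H2-Aa, the A alpha chain and partner of H2-Ab1, split the labelled double knockouts in the same way. Its level was 7.19, 7.37, 6.99, 7.0, 7.04 and 5.52 in the labelled double knockouts, 6.76, 6.83, 6.54 and 6.31 in Itgb1 knockouts, and 5.92, 6.18, 6.84 and 6.11 in the Itgb3 knockouts. In controls it was 6.15, 7.11, 6.0, 7.20 and 5.97. The controls fell into 2 tumours near the labelled double knockouts and 3 well below them, and 1 labelled double knockout exceeded every control. The difference from controls was 0.36 (SE 0.30, limma adjusted p = 0.567).

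The probe set shared by Cd74 and Mir5107 read 11.47, 11.32, 11.12, 11.16, 11.23 and 9.20 in the labelled double knockouts. It read 10.37, 10.70, 10.21 and 10.33 in Itgb1 knockouts, 9.55, 9.64, 10.37 and 9.66 in Itgb3 knockouts, and 9.74, 11.02, 10.11, 10.67 and 10.11 in controls. Here 5 labelled double knockouts were above all 13 tumours of the other groups, which held for only 3 with H2-Ab1 and 1 with H2-Aa. Tumour 6 was below all other tumours, as for those genes. The array does not tell the protein-coding gene from the microRNA gene inside this probe set.

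H2-DMa, the alpha chain of the peptide exchanger, was 7.33, 7.10, 6.95, 6.66, 6.75 and 5.87 in the labelled double knockouts. It was 6.35, 6.04, 6.0 and 6.47 in the Itgb1 knockouts and 5.86, 6.43, 6.45 and 6.03 in the Itgb3 knockouts, against 6.45, 6.74, 6.68, 6.61 and 6.02 in controls. Of the 6 labelled double knockouts, 5 exceeded every single knockout and 4 exceeded every control. The difference was 0.28 from controls (SE 0.21, limma adjusted p = 0.525) and 0.56 from Itgb1 knockouts (SE 0.22, adjusted p = 0.314).

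Ciita, the class II coactivator, differed less. Its level was 5.91, 6.26, 5.78, 5.90, 5.83 and 5.67 in the labelled double knockouts, 5.71, 5.49, 5.53 and 5.65 in Itgb1 knockouts, 5.83, 6.02, 5.77 and 5.54 in Itgb3 knockouts, and 5.68, 6.01, 5.36, 5.77 and 5.27 in controls. The groups overlapped, and tumour 6, lowest for H2-Ab1, ranked 7th from the lowest of the 19 for Ciita. The difference of the labelled double knockouts from controls was 0.27 (SE 0.13, 1.21-fold, 95% interval -0.0050 to 0.55), with the smallest adjusted p of any member in that comparison (limma, 0.306).

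**Figure D1:**
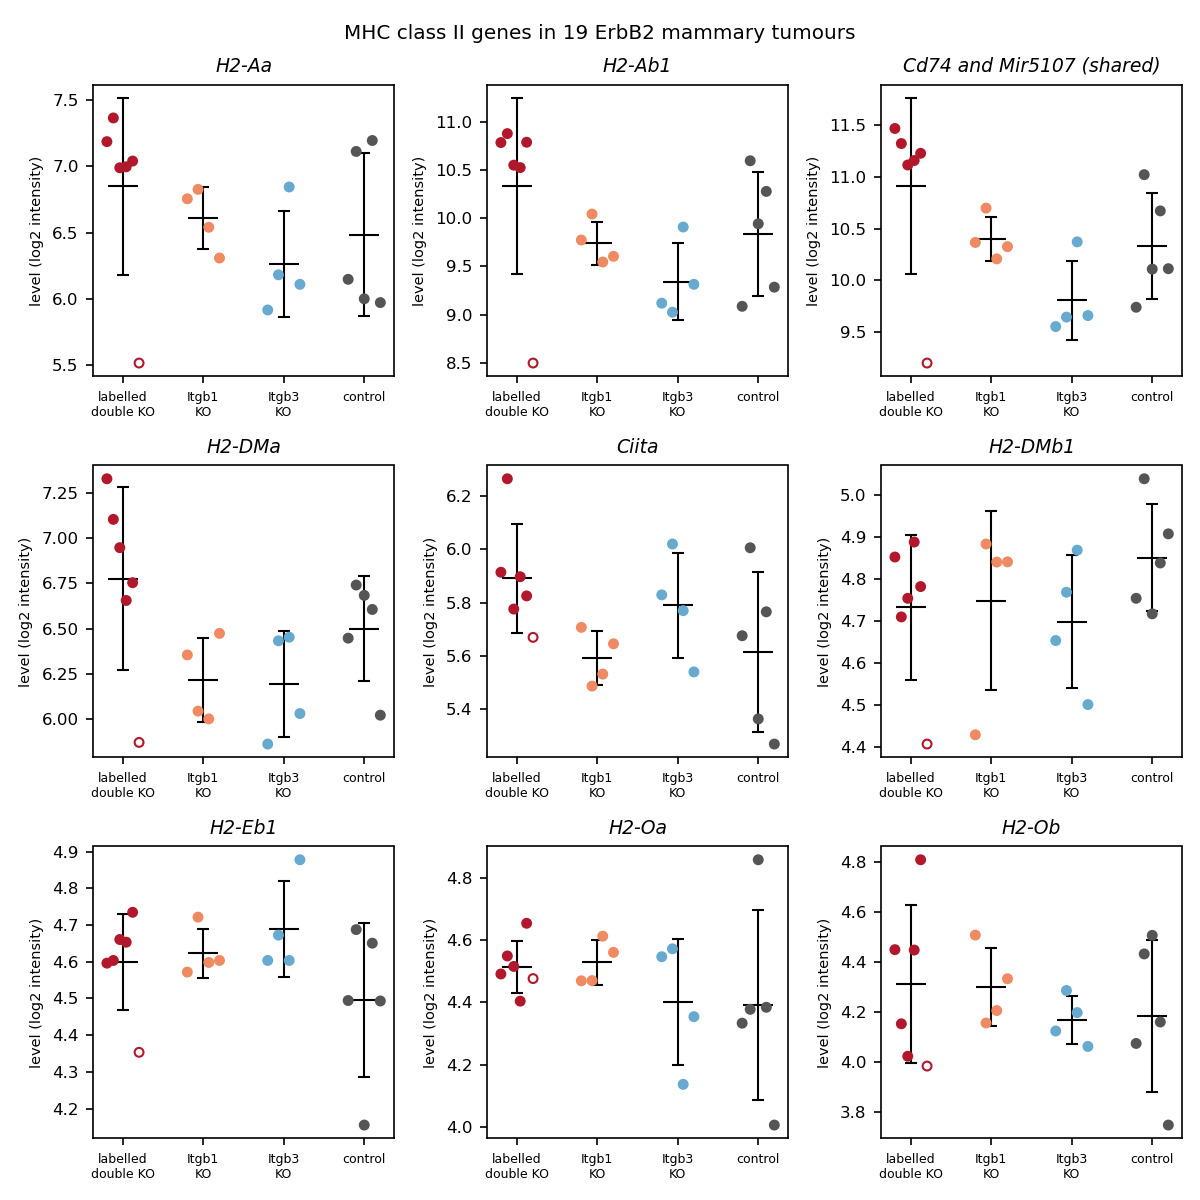
Level (log2 intensity, vertical axes) of the 8 MHC class II genes tested and of the probe set shared by Cd74 and Mir5107 in 19 tumours, 1 point per tumour, with the mean and SD of each genotype group. The open circle is labelled double knockout tumour 6. In the H2-Aa, H2-Ab1 and Cd74 panels it lies at the bottom (5.52, 8.5 and 9.20) while the other 5 labelled double knockouts lie at 6.99 to 7.37, 10.52 to 10.87 and 11.12 to 11.47. Axes do not start at 0 and differ between panels.

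The remaining members stayed close to the intensity filter and moved little. H2-DMb1, the H2-DM beta chain, ranged from 4.41 to 5.04 over the 19 tumours, and H2-Eb1 from 4.15 to 4.88. H2-Oa and H2-Ob, the chains of the H2-DM inhibitor, ranged from 4.01 to 4.86 and from 3.75 to 4.81. H2-Ob reached the filter in 6 tumours (3 labelled double knockouts, 1 Itgb1 knockout, 0 Itgb3 knockouts and 2 controls), H2-Oa in 14 and H2-Eb1 in 17, whereas the other members did so in all 19. The SDs of H2-Eb1 and H2-DMb1 over the tumours, 0.15 and 0.16, stood at the 6.72 and 10.8 percentiles of all genes tested, while those of H2-Ab1 (0.70) and H2-Aa (0.54) stood at the 96.1 and 92.4 percentiles. Signals this near the middle of the table leave little room to read a lower level.

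A second probe set of H2-Oa, shared with BC051537, averaged 3.40 and reached the filter on 0 arrays, so it was not used. The related loci H2-Ea, H2-Eb2 and H2-DMb2 reached the filter on 2, 0 and 0 arrays and were not tested. H2-Ea, the E alpha chain, averaged 4.28 ± 0.20 in the labelled double knockouts, 4.12 ± 0.18 in Itgb1 knockouts, 3.97 ± 0.16 in Itgb3 knockouts and 4.07 ± 0.11 in controls (SD). Both arrays on which it reached the filter were labelled double knockouts.

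The comparison of the labelled double knockouts with controls asked whether the class II level differed between tumours labelled for loss of both integrins, in which Itgb1 alone was low here, and tumours that kept them. No member passed (0 of 8 at a limma adjusted p of 0.05, Benjamini-Hochberg over all genes), where 55 of all genes did (0.386%), and 0 members had an unadjusted p below 0.05, where 2398 of all genes (16.9%) did. The difference was above 0 for 7 of 8 members, and the median member difference was 0.20, beside 0.03 for all genes tested. H2-DMb1 was the exception at -0.12 (SE 0.11). Without tumour 6 the differences of H2-Ab1, H2-Aa and H2-DMa were 0.87, 0.63 and 0.46 (adjusted p = 0.0959, 0.196 and 0.188), still 0 of 8 members, with a member median of 0.26, where 77 of all genes (0.541%) passed.

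The single knockouts were set against controls in the same way. Between the Itgb1 knockouts and controls, 0 of 8 members passed, 1 gene in all (0.00703%) did, 0 members had an unadjusted p below 0.05 (4.86% of all genes), and the member differences ran from -0.28 for H2-DMa to 0.14 for H2-Oa with a median of 0.05. Between the Itgb3 knockouts and controls, 0 of 8 members and 0 of all genes passed (0%, with 874 genes at an unadjusted p below 0.05 and 0 members among them, 6.14% of all genes). There the lowest differences belonged to H2-Ab1 at -0.49 (SE 0.40, 95% interval -1.33 to 0.34), H2-DMa at -0.31 and H2-Aa at -0.22. Intervals of this width do not show that the single knockouts and controls were alike.

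For H2-Ab1, H2-Aa and H2-DMa the widest gap lay between the labelled double knockouts and the Itgb3 knockouts, although the median of the 8 members there was 0.13 (0.03 for all genes), below the 0.20 against controls. H2-Ab1 was 0.99 higher (SE 0.38, 1.99-fold, 95% interval 0.19 to 1.80, limma adjusted p = 0.148), H2-Aa 0.59 higher (SE 0.32, adjusted p = 0.301) and H2-DMa 0.58 higher (SE 0.22, 1.5-fold, adjusted p = 0.145). With all tumours 0 of 8 members passed where 408 of all genes (2.87%) did, and 2 members had an unadjusted p below 0.05, where 3009 of all genes (21.1%) did. Without tumour 6, 2 of 8 members passed and 458 of all genes (3.22%) did. That tumour was singled out by its low class II levels, so these values are no independent test. H2-Ab1 was then 1.36 higher (SE 0.25, 2.57-fold, adjusted p = 0.0143) and H2-DMa 0.76 higher (SE 0.18, 1.70-fold, adjusted p = 0.0291), while H2-Aa was 0.85 higher and did not pass (adjusted p = 0.0657). With array weights in place of removing a tumour, 2 of 8 members passed, where 1568 of 14231 genes did, against 408 without weights. H2-Ab1 was then 1.08 higher and H2-DMa 0.69 higher (limma adjusted p = 0.0245 and 0.0241). Tumour 6 had the lowest weight of the 19 arrays (0.589), so this count is no separate support.

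Against the Itgb1 knockouts the labelled double knockouts had H2-Ab1 0.59 higher (SE 0.38, limma adjusted p = 0.558), Ciita 0.30 higher (SE 0.14, adjusted p = 0.408) and H2-DMa as given above. The count was 0 of 8 members where 3 of all genes (0.0211%) passed, with 1 member, H2-DMa, at an unadjusted p below 0.05 (12.3% of all genes). It was again 0 without tumour 6, where 8 genes (0.0562%) passed. Between the Itgb3 and the Itgb1 knockouts 0 of 8 members and 0 of all genes passed (0%, with 647 genes, 4.55%, and 0 members at an unadjusted p below 0.05). The Itgb3 minus Itgb1 difference was -0.40 for H2-Ab1 and -0.34 for H2-Aa, with SEs of 0.42 and 0.35. These comparisons share their samples, so their differences are not separate evidence.

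By group mean, H2-Ab1 stood at 10.34 ± 0.91 in the labelled double knockouts, 9.74 ± 0.22 in Itgb1 knockouts and 9.34 ± 0.40 in Itgb3 knockouts, against 9.84 ± 0.64 in controls (SD), which ranked between the labelled double knockouts and the Itgb1 knockouts. H2-Aa and the Cd74 and Mir5107 probe set had the labelled double knockouts highest and the Itgb3 knockouts lowest too. No pair of neighbours in the order of H2-Ab1 differed beyond its spread with all 19 tumours. Differences between group means made up 28.0% of the variance of H2-Ab1 over the tumours, 16.7% for H2-Aa, 35.6% for H2-DMa and 30.2% for Ciita, so most of the variation lay between tumours of the same genotype.

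**Figure D2:**
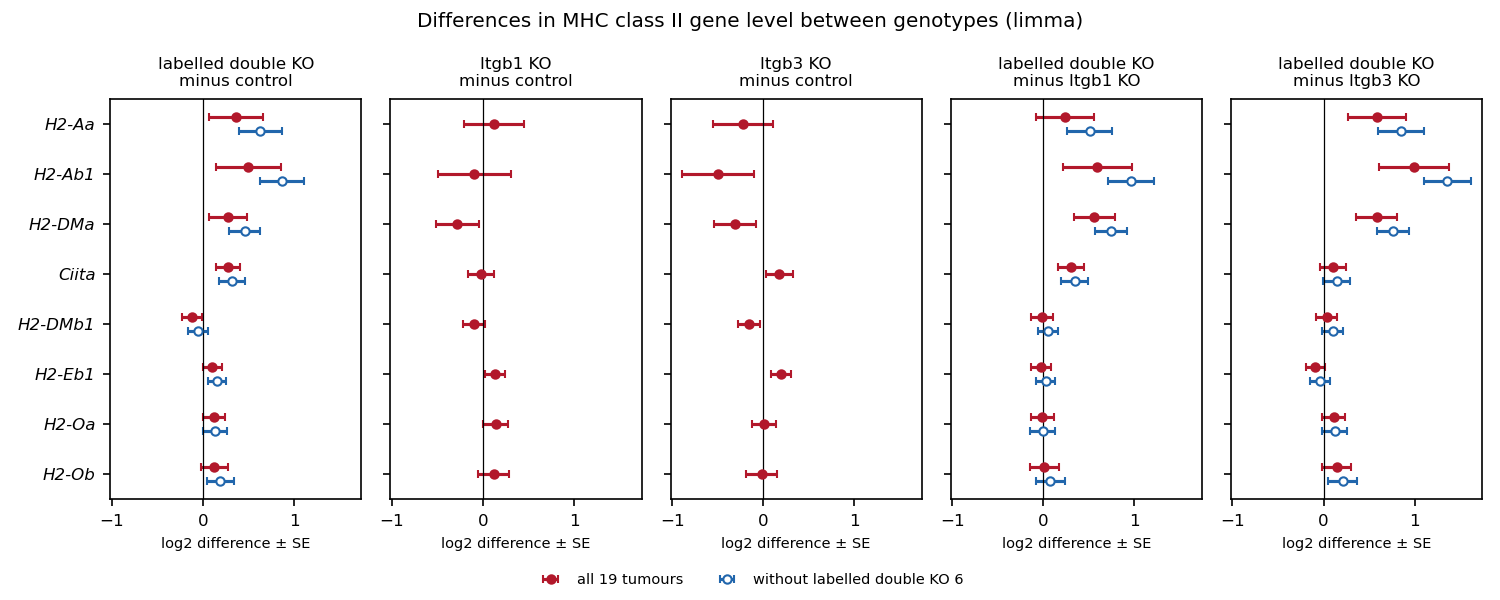
Differences in level of the 8 MHC class II genes (log2, horizontal axes, ± SE from limma) for 5 comparisons, 1 panel each. Filled circles use all 19 tumours and open circles leave out labelled double knockout tumour 6. For H2-Ab1 the difference from Itgb3 knockouts is 0.99 with all tumours and 1.36 without that tumour, and H2-DMb1, H2-Eb1, H2-Oa and H2-Ob lie at most 0.21 from 0 in all panels.

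H2-Aa, H2-Ab1, H2-DMa and the Cd74 and Mir5107 probe set varied together from tumour to tumour. Over the 19 tumours, which share array and tissue, Pearson's r was 0.974 between H2-Ab1 and the shared probe set (Spearman's rho 0.946), 0.916 between H2-Ab1 and H2-Aa (rho 0.877), and 0.814 between H2-Ab1 and H2-DMa (rho 0.847). The values were of like size for deviations from group means (0.973, 0.914 and 0.762) and without tumour 6 (0.968, 0.891 and 0.787). Ciita followed less closely, with r of 0.447 with H2-Ab1, 0.557 with H2-Aa and 0.574 with H2-DMa. H2-Oa, whose promoter window holds the X and Y cores shown above, had r of 0.166 with H2-Ab1 and 0.566 with its partner H2-Ob. H2-Eb1 had r of 0.281 with H2-Ab1, falling to 0.121 without tumour 6. These are descriptions over 36 pairs, and the pairs with low r hold genes near the filter.

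**Figure D3:**
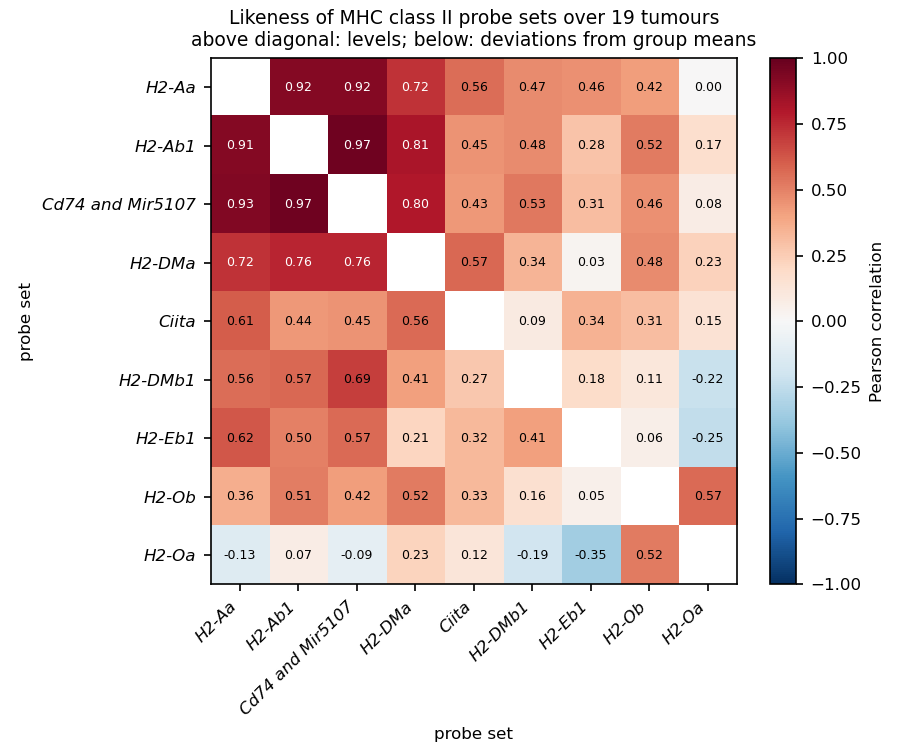
Pearson correlation between the 8 MHC class II genes and the probe set shared by Cd74 and Mir5107 over 19 tumours. Cells above the diagonal use the levels and cells below it the deviations from group means. The block of H2-Aa, H2-Ab1, the shared probe set and H2-DMa stands out (0.72 to 0.97 above the diagonal), and above the diagonal H2-Oa lies between 0.00 and 0.23 with these 4.

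Outside the members, the genes whose level was most like the mean of the 8 members over the 19 tumours were Dok3, Dock10, Tgfbi, Efhd2, Zmynd15, Fmnl1, Kifc3, Ly86, Mbd1 and Themis2. Their r ran from 0.857 for Dok3 to 0.801 for Themis2, among 12888 candidate genes, and the next gene had 0.790. Deviations from group means gave 0.768 for Fmnl1 to 0.871 for Mbd1. Dok3 is an adaptor of B cells and myeloid cells, Ly86 (MD-1) the partner of the B cell and myeloid receptor RP105, and Themis2 a signalling protein of B cells and macrophages. Tgfbi, an extracellular matrix protein, was 0.58 higher in the labelled double knockouts than in controls and did not pass (limma adjusted p = 0.212). Of the 10, 0 passed in that comparison. Which cell types express the 10 genes in these tumours was not examined.

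Genes that act around class II were read from lists. The promoter factors, which are the RFX subunits Rfx5, Rfxap and Rfxank, Creb1 and the NF-Y subunits Nfya, Nfyb and Nfyc, had 0 of 7 passing in any comparison, 0 at an unadjusted p below 0.05 between labelled double knockouts and controls, and a median difference of 0.00 between labelled double knockouts and controls, beside 0.03 for all genes. Creb1 was 0.24 and Nfya 0.18 higher there (limma adjusted p = 0.313 and 0.404). The list of Ciita inducers held 10 genes, of which 8 were tested. Among these was Socs1, which restrains interferon gamma signalling and is no inducer. Between labelled double knockouts and controls 4 of the 8 had an unadjusted p below 0.05 (16.9% of all genes). The median difference there was 0.18, with 7 of 8 above 0 and Socs1 at -0.29. Of the 8, 1 passed in 1 comparison, that with Itgb3 knockouts, where 2.87% of all genes passed. Irf8, a transcription factor of macrophages, dendritic cells and B cells, was 5.96 ± 0.39 in the labelled double knockouts and 5.14 ± 0.11 in the Itgb3 knockouts (SD), a rise of 0.83 (SE 0.18, adjusted p = 0.0263). Against controls, at 5.26 ± 0.34, it was 0.70 higher and did not pass (adjusted p = 0.0715). The highest Irf8 level of any tumour, 6.66, was that of labelled double knockout tumour 6, which had the lowest H2-Ab1 level. Irf8 and H2-Ab1 thus went opposite ways in that tumour. Without it the rise of Irf8 over the Itgb3 knockouts was 0.69 in place of 0.83. Ifng, the interferon gamma gene, did not reach the filter.

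Among the genes of endosomal processing and class II turnover, 0 of 9 tested passed in any comparison, and 2 had an unadjusted p below 0.05 between labelled double knockouts and controls, a share near the 16.9% of all genes. Cd83, which protects class II from ubiquitination, was 0.46 higher and Lgmn, an endosomal protease that trims antigen and the invariant chain, 0.32 higher in labelled double knockouts than in controls (limma adjusted p = 0.145 and 0.245). Of the 5 genes of class II recognition and costimulation 0 passed and 1 had an unadjusted p below 0.05, again near that share. All 5 differences from controls were above 0, with a median of 0.30. Lag3, a T cell receptor for class II, was 0.35 higher and Cd80, a costimulatory ligand, was 0.34 higher (adjusted p = 0.210 and 0.365). Without tumour 6, Cd83 and Lag3 passed against the Itgb3 knockouts, at 0.58 and 0.52 (adjusted p = 0.0494 and 0.0403). These were 1 of 9 and 1 of 5 genes, where 3.22% of all genes passed.

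The medians of the class I and interferon lists lay below 0. The 9 class I genes tested, which include the heavy chain H2-K1, B2m, the Tap transporters and the immunoproteasome subunits, all had differences below 0 between labelled double knockouts and controls, with a median of -0.57. Of the 9, 0 passed and 6 had an unadjusted p below 0.05, where 16.9% of all genes did. Psmb9, an immunoproteasome subunit, was -1.25 (SE 0.38, limma adjusted p = 0.129) and Psmb8 -0.96 (SE 0.36, adjusted p = 0.185). The median was -0.87 over 7 interferon gamma targets and -1.60 over 8 type I interferon targets, with 0 passing in either list and 4 of 7 and 8 of 8 at an unadjusted p below 0.05 (16.9% of all genes). The GTPases Irgm1 and Igtp were -0.87 and -1.44 (adjusted p = 0.137 and 0.149), and the antiviral genes Rsad2 and Mx2 -1.64 and -1.94 (adjusted p = 0.0578 for both). Of the 7 interferon gamma targets 2 had differences above 0, the chemokines Cxcl9 at 0.36 and Cxcl10 at 0.18. Without tumour 6, Mx2 and Rsad2 passed as lower, at -2.14 and -1.80 (adjusted p = 0.0435 for both). These were 2 of 8 type I targets, where 0.541% of all genes passed. Of the class I and interferon gamma genes 0 did. The medians of the class I, interferon gamma and type I lists were then -0.52, -0.93 and -1.69. These lists thus had medians below 0 where the class II members had a median above 0, and that contrast between lists was not itself tested.

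**Figure D4:**
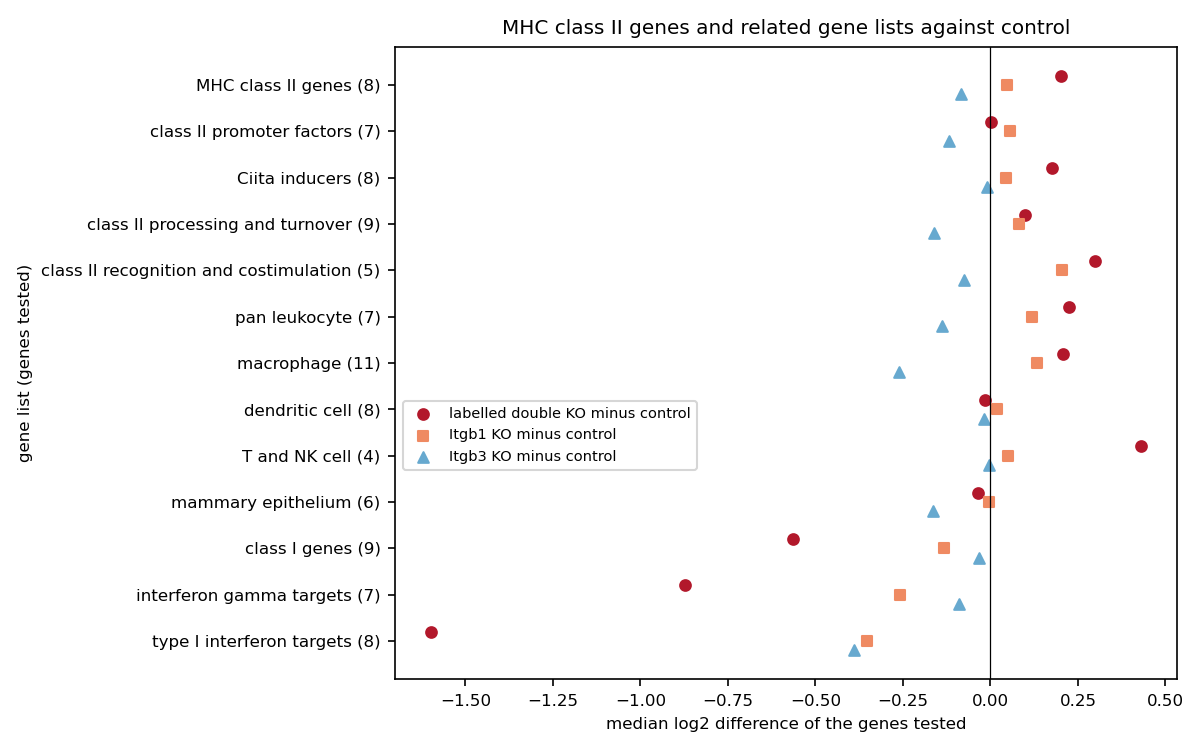
Median log2 difference from controls (horizontal axis) of the 8 MHC class II genes and of 12 related gene lists, with the number of genes tested in brackets. Circles are labelled double knockouts, squares Itgb1 knockouts and triangles Itgb3 knockouts. For the labelled double knockouts the class II median is 0.20, while class I genes (-0.57), interferon gamma targets (-0.87) and type I interferon targets (-1.60) lie below 0.

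A few leukocyte markers rose in the labelled double knockouts relative to the Itgb3 knockouts. In these bulk samples more cells of a type and more RNA per cell cannot be told apart. The summed level of the 11 macrophage markers, given as their mean, ranged from 6.95 to 7.90 in the labelled double knockouts, 7.27 to 7.56 in Itgb1 knockouts, 6.91 to 7.34 in Itgb3 knockouts and 6.95 to 7.6 in controls. In that comparison all 11 differences were above 0, 2 of 11 passed (2.87% of all genes), and the median was 0.52, beside 0.03 for all genes. Adgre1, a macrophage surface receptor, was 7.18 ± 0.39 in labelled double knockouts and 6.20 ± 0.20 in Itgb3 knockouts, 0.98 higher (SE 0.19, limma adjusted p = 0.0163). Csf1r, the receptor for the macrophage growth factor CSF1, was 8.31 ± 0.51 in labelled double knockouts and 7.33 ± 0.30 in Itgb3 knockouts, 0.98 higher (SE 0.24, adjusted p = 0.0341).

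Of the 8 dendritic cell markers tested, 1 passed in that comparison (2.87% of all genes). Itgax (CD11c), which many tumour macrophages carry as well, was 6.33 ± 0.58 in labelled double knockouts and 5.29 ± 0.26 in Itgb3 knockouts, 1.04 higher (SE 0.28, limma adjusted p = 0.0493). The list had a median of -0.07, with 4 of 8 differences above 0. Those of Ccr7, Xcr1, Zbtb46 and Flt3 were -0.65, -0.22, -0.19 and -0.14. Of the 7 pan leukocyte markers tested, 1 passed as well, Laptm5 at 0.63 higher (SE 0.15, limma adjusted p = 0.0313). The list median was 0.24, with 6 of 7 differences above 0 and Lcp1 at -0.27. The T and NK cell list had 4 genes of 9 past the filter, of which 0 passed and 0 had an unadjusted p below 0.05, with Cd3e 0.68 and Cd3g 0.56 higher in labelled double knockouts than in controls (adjusted p = 0.325 and 0.386). Without tumour 6, Irf8, Adgre1, Csf1r, Itgax and Laptm5 still passed against the Itgb3 knockouts (limma adjusted p = 0.0258, 0.0111, 0.0171, 0.0171 and 0.0214), where 3.22% of all genes did. That refit shared all its tumours with the first fit, so it is no separate support. The medians there were 0.58 for macrophage, 0.34 for pan leukocyte and 0.00 for dendritic cell markers. Of 9 B cell genes only Cd22 passed the filter, with a difference of 0.27 from controls, and Cd79a, Cd79b, Ms4a1 and Pax5 did not. Markers of mammary epithelium, fibroblasts, endothelium and adipocytes had 0 passing in any comparison, though all 6 fibroblast differences between labelled double knockouts and Itgb3 knockouts were above 0 (median 1.21, with Col1a2 at 1.27 and Col1a1 at 1.24, adjusted p = 0.0621 and 0.0598). From controls the labelled double knockouts differed by 0.29 for Krt8 and -0.16 for Epcam, both of epithelium, by 0.44 for Tie1 and 0.70 for Tek, both of endothelium, and by -0.19 for Plin1 and 0.35 for Cidec, both of adipocytes.

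Over the 19 tumours the level of H2-Ab1 was set against the mean of each of 16 lists, with two-sided tests of 100000 permutations and Benjamini-Hochberg adjustment over the 16 relations. Pearson's r with the macrophage markers was 0.668 (permutation p = 0.00224, adjusted p = 0.0122) and Spearman's rho 0.707 (permutation p = 0.00113, adjusted p = 0.0110). The values with the dendritic cell list were r = 0.675 (permutation p = 0.00132, adjusted p = 0.0122) and rho = 0.635 (permutation p = 0.00442, adjusted p = 0.0170). Flt3, Zbtb46, Xcr1 and Siglech of that list had group means of 4.33 to 4.74, near the filter of 4.38. Which of its genes carried the relation was not examined. Pan leukocyte markers gave r = 0.647 (permutation p = 0.00301, adjusted p = 0.0122) and rho = 0.679 (permutation p = 0.00196, adjusted p = 0.0110). The class I list gave r = -0.190 and rho = -0.221 (permutation p = 0.435 and 0.361), interferon gamma targets r = -0.220 and mammary epithelium r = 0.085, none of which passed.

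Without the 2 tumours farthest from the median of the list, r was 0.546 for macrophage markers, 0.477 for the dendritic cell list and 0.497 for pan leukocyte markers. For deviations from group means r was 0.550, 0.745 and 0.551. Without tumour 6 it was 0.717, 0.558 and 0.648. The recognition and costimulation list had r = 0.647, the processing list 0.569 and the T and NK cell list 0.565 (permutation adjusted p = 0.0122, 0.0312 and 0.0312), and without tumour 6 r was 0.671, 0.561 and 0.544. The list of Ciita inducers, with the inhibitor Socs1 averaged in, had r = 0.523 (permutation adjusted p = 0.0510). Its rho was 0.551 (permutation adjusted p = 0.0419), so that it passed by rank only. Its r was 0.392 without the 2 tumours farthest from its median, 0.304 for deviations from group means and 0.768 without tumour 6. The endothelium list, at r = 0.300 with all tumours (permutation adjusted p = 0.292), had r = 0.572 without tumour 6. Its r was 0.0023 without the 2 tumours farthest from its median and 0.0050 for deviations from group means.

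**Figure D5:**
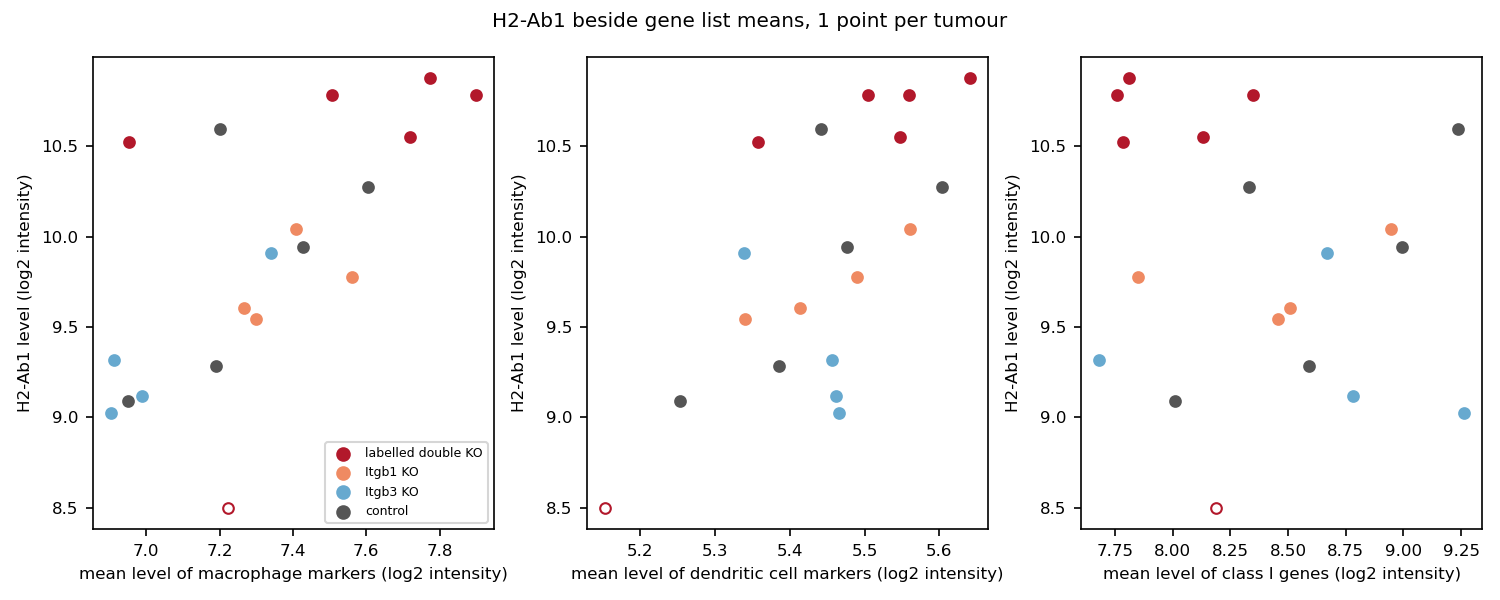
H2-Ab1 level (vertical axes, log2 intensity) against the mean level of 11 macrophage markers, 8 dendritic cell markers and 9 class I genes (horizontal axes, log2 intensity), 1 point per tumour, with the open circle for labelled double knockout tumour 6. H2-Ab1 runs with the first 2 lists (r = 0.668 and 0.675) and not with class I (r = -0.190), and tumour 6 has the lowest dendritic cell mean of all (5.15).

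Tumour 6 was low in some leukocyte lists and not in others. Its dendritic cell mean of 5.15 was the lowest of the 19 (5.36 to 5.64 in the other labelled double knockouts), and its T and NK cell mean of 4.83 lay below that of the other 5 (5.25 to 6.25). Its macrophage mean of 7.22 was inside their range, and labelled double knockout tumour 4, with the lowest macrophage mean of that group (6.95), had H2-Ab1 at 10.52. With the mean of the pan leukocyte markers as a covariate, the H2-Ab1 difference between labelled double knockouts and Itgb3 knockouts was 0.56 (SE 0.37, limma adjusted p = 0.434) in place of 0.99. From controls it was 0.25 (SE 0.32, adjusted p = 0.755) in place of 0.50. The covariate itself differed between groups, at 7.02 ± 0.35 in labelled double knockouts and 6.73 ± 0.12 in Itgb3 knockouts (SD). A fit with it therefore cannot separate leukocyte content from genotype. The part of leukocyte content in the class II differences was not tested.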

How the data were processed

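The authors deposited normalized log2 intensities, 1 value for each of 41345 probe sets on each array. The submitters' processing notes name Affymetrix Expression Console and no version. How background was corrected and probes were summarized was not stated. The values entered as deposited. Symbols came from GEO's platform annotation (23521 probe sets with 1 symbol, 1814 with several, 16010 with none). One limma 3.58.1 fit (R 4.3.3, lmFit and eBayes, 15 residual degrees of freedom) gave each of 4 groups a mean, from which 6 pairwise two-sided comparisons were taken, each adjusted by Benjamini-Hochberg over 14231 genes. The script was tested on simulated data. The number of arrays limits the precision.

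The members and gene lists were chosen with earlier results of these data known. Named are all members, each list gene that passed in any comparison (otherwise the 2 with the smallest p between labelled double knockouts and controls), and the 10 genes most like the mean of the members, predicted genes left out. Each of the 17 lists written is reported. Alternatives were 10 settings and leaving out each of the 19 tumours. Scipy 1.17.1 ran the permutations. RefSeq GRCm38.p6 supplied promoters.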

Additional observations from a re-analysis of the deposited data

Results flagged for a closer look

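In the 36 groups of 4 to 6 tumours examined (8 genes and the probe set shared by Cd74 and Mir5107), 7 had a highest or lowest tumour unusually far from the nearest other one, where chance gives about 1 in 20. Labelled double knockout tumour 6 was such a low value in 5 of them: H2-Aa at 5.52, H2-Ab1 at 8.5, H2-Eb1 at 4.35, H2-DMb1 at 4.41 and the shared probe set at 9.20. These genes are correlated, so the 5 are not separate observations. Itgb1 knockout tumour 1 was low for H2-DMb1 at 4.43, against 4.84 to 4.88 in the other 3. Itgb3 knockout tumour 3 was high for the shared probe set at 10.37, against 9.55 to 9.66 in the other 3, and it also had the highest H2-Aa and H2-Ab1 of its group.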

How the results depend on the processing

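Labelled double knockout tumour 6 and array weights were the choices that changed a class II call. Members passing between labelled double knockouts and Itgb3 knockouts numbered 2 with array weights and 0 to 2 when each tumour was left out, and 0 under the other settings. In all other comparisons the count was 0 under every setting. With array weights H2-Ab1 (1.08) and H2-DMa (0.69) passed there, where 1568 of all genes did. Raising the filter by 1 log2 unit left 4 members, with medians of 0.43 against Itgb1 knockouts and 0.58 against Itgb3 knockouts. Of 380 member differences under the 10 settings, 16 changed sign, all within 0.06 of 0.

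Signs turned as follows. Median centring gave H2-Oa -0.056 (Itgb3 knockouts minus controls), H2-Eb1 0.016, H2-DMb1 0.023 and H2-Oa 0.026 (labelled double knockouts minus Itgb1 knockouts) and H2-Eb1 0.022 (minus Itgb3 knockouts). Quantile normalization gave -0.054, 0.012, 0.020, 0.024 and 0.012 for the same. Raising low values gave H2-Ob -0.0042 (Itgb1 knockouts minus controls) and H2-Oa -0.0067 (Itgb3 knockouts minus controls). Array weights gave H2-Oa -0.0067 (Itgb3 knockouts minus controls), H2-Eb1 0.0080 and H2-Ob -0.0063 (labelled double knockouts minus Itgb1 knockouts), and the leukocyte covariate H2-DMb1 -0.0094 (minus Itgb3 knockouts).

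Leaving out single tumours gave these ranges. Itgb1 knockouts minus controls: H2-DMb1 -0.15 to 0.0037, Ciita -0.11 to 0.074, H2-Ab1 -0.28 to 0.094 and H2-Aa -0.0064 to 0.30. Itgb3 knockouts minus controls: H2-Oa -0.086 to 0.13 and H2-Ob -0.13 to 0.064. Labelled double knockouts minus Itgb1 knockouts: H2-Ob -0.089 to 0.079, H2-Oa -0.041 to 0.015, H2-Eb1 -0.050 to 0.026 and H2-DMb1 -0.12 to 0.049. Labelled double knockouts minus Itgb3 knockouts: H2-DMb1 -0.031 to 0.099, H2-Ab1 0.89 to 1.36 and H2-DMa 0.47 to 0.76.

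Genes passing between labelled double knockouts and controls (55) numbered 100 with median centring, 31 with quantile normalization, 27 without a filter, 29 with probe sets averaged, 31 with array weights, 26 with a trended robust eBayes, 2 with only the compared groups, 21 with the covariate, and 14 (without labelled double knockout tumour 2) to 125 (without tumour 5) when a tumour was left out. Against Itgb3 knockouts (408) they numbered 1226 with median centring, 231 with quantile normalization, 1568 with array weights, 78 with the covariate, and 56 (without Itgb3 knockout tumour 1) to 459 (without control tumour 2). Against Itgb1 knockouts (3) they numbered 33 with array weights, 7 with only the compared groups, and 0 to 24. Itgb1 knockouts against controls (1) gave 0 with array weights and 0 to 1, and Itgb3 against Itgb1 knockouts (0) 0 to 1. The causes were not tested. No paired analysis was possible because the labels carry no replicate numbers.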
